A study of Mus musculus with 38 samples.

Results

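The genes described here encode the conjugating and non-P450 detoxification enzymes of the mouse liver, and they were taken from a spatial transcriptomic data set of diet-induced cholestasis. Members were all measured genes whose symbols begin with the names of the glutathione S-transferase (Gst), UDP-glucuronosyltransferase (Ugt), sulfotransferase (Sult), flavin monooxygenase (Fmo), aldehyde oxidase (Aox), carboxylesterase (Ces) or Akr1 aldo-keto reductase families, with Gm3776, a gene of the alpha Gst group, and Nqo1 added by name. The rule used symbols only and found 71 members among 10547 genes. They comprised 19 Gst genes, 12 Ugt genes, 12 Ces genes, 11 Akr1 genes, 10 Sult genes, 4 Fmo genes, 2 Aox genes and Nqo1.

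Drug and bile acid detoxification in hepatocytes proceeds by making a compound reactive or soluble and then attaching a polar group. Glutathione S-transferases attach glutathione to electrophiles, glucuronosyltransferases attach glucuronic acid, and sulfotransferases attach sulfate. Carboxylesterases cleave esters of drugs and lipids, aldo-keto reductases and Nqo1 reduce carbonyls and quinones, and flavin monooxygenases and aldehyde oxidases oxidise nitrogen, sulfur and aldehyde groups. Several Gst genes and Nqo1 are textbook targets of NRF2, the transcription factor that responds to electrophiles, whereas many Ugt, Sult and Ces genes depend on nuclear receptors of the hepatocyte. Most of these genes are known chiefly from hepatocytes.

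The data were GeoMx measurements, in which barcoded probes are released by light from marked areas of a formalin-fixed liver section and counted by sequencing. C57BL/6 mice aged 6 to 8 weeks carried either the unaltered Tnfsf10 gene (WT) or a floxed Tnfsf10 gene deleted by Cre under the Lyz2 promoter (Trail.mye), which acts in myeloid cells and leaves Tnfsf10 intact elsewhere. They received control diet (CON) or a diet with 0.1% DDC, a dihydrocollidine compound that injures bile ducts, in 3 rounds of 5 days separated by 2 rounds of 3 days on chow, and the experiment ended on day 22. Areas were drawn around the ductular reaction or in the parenchyma, and were split by staining for pan-cytokeratin (PanCK, bile duct epithelium) or IBA1 (macrophages). The 38 segments came from 23 areas. The PanCK periportal class had 3 WT CON, 4 WT DDC, 4 Trail.mye CON and 5 Trail.mye DDC segments. The IBA1 periportal class had 2, 4, 4 and 5 segments in the same order, and the IBA1 parenchymal class had 1, 2, 2 and 2. No label ties a segment to an animal, so segments of one group may share an animal, and the p-values below measure the spread between segments and are too small as statements about mice. Tnfsf10 itself was not analysed here.

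Segment totals ran from 20319 to 836971 counts and differed by group. Trail.mye DDC periportal segments were the deepest, at 158220 to 836971 counts, whereas WT CON PanCK segments held 23482 to 29510. The lowest deposited count is 1, and 25.8% of the members' values sat there. One count is worth more in a shallow segment, so for low genes the deposited Q3-normalised value (each segment scaled by its upper quartile) has a floor that moves with depth. The negative probe, the background control of the deposited table, was at 1.40 to 6.02 per segment on the same scale. A level at or below it in a segment cannot be told from background, also where the count is above 1. All levels below are Q3-normalised counts unless counts are named, and they are compared between segments for one gene, not between genes. Segment identity followed the stain. All 12 cholangiocyte markers were higher in PanCK than in IBA1 periportal segments and all 12 macrophage markers were lower, with log2 differences of 2.68 for Krt19 and -2.63 for C1qa (edgeR quasi-likelihood test). Both stains also held hepatocyte RNA, with a median Alb level of 1932 in PanCK, 2408 in IBA1 periportal and 7682 in IBA1 parenchymal segments. The summed level of 14 hepatocyte markers was 3976 to 17889 in CON segments (median 12184) and 1474 to 19020 in DDC segments (median 4019). Fewer hepatocytes in a segment and less RNA per hepatocyte cannot be told apart in such data.

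Across all segments, the DDC diet was accompanied by higher levels of a small Gst set and lower levels of a broad set of Sult, Ces, Ugt and Akr1c genes. Gm3776 and Gstm3 were the members with the largest rise, and Sult2a8 and Ces3b were among those with the largest fall. In a fit that compared DDC with CON within each genotype and segment class, 6 members rose and 26 fell at an adjusted p under 0.05 by edgeR's quasi-likelihood test, 32 of 71 in all. The same fit called 12.8% of all 10547 genes, 6.84% higher and 5.95% lower. The median log2 fold change was -0.46 over the members against 0.04 over all genes, and 53 of the 71 members lay below 0. Of 19 Gst genes 5 rose and 3 fell, whereas no Ugt, Sult, Ces, Akr1 or Aox gene rose and 7 of 12, 3 of 10, 6 of 12, 5 of 11 and 1 of 2 fell. The median log2 fold change was 0.16 in the Gst genes, -0.53 in Sult, -0.56 in Akr1, -0.57 in Aox, -0.64 in Ces and -0.69 in Ugt. Hepatocyte markers moved with this result. Of the 14 markers 11 fell on DDC and none rose, with a median log2 fold change of -1.22 and -1.38 for Alb. Cholangiocyte markers (7 of 12) and fibroblast markers (8 of 10) rose, and of 12 macrophage markers 3 rose and 4 fell, and their part in the result was not tested. The log of each segment's hepatocyte marker sum was then added to the fit, a setting chosen after seeing the data. With it 37 members were called (8 higher, 29 lower), and 26 of the 32 were among them. The share of all genes called with this covariate is not given here. Because the markers themselves fell on DDC, the covariate overlaps with diet, and the fit cannot separate hepatocyte content from diet.

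**Figure D1:**
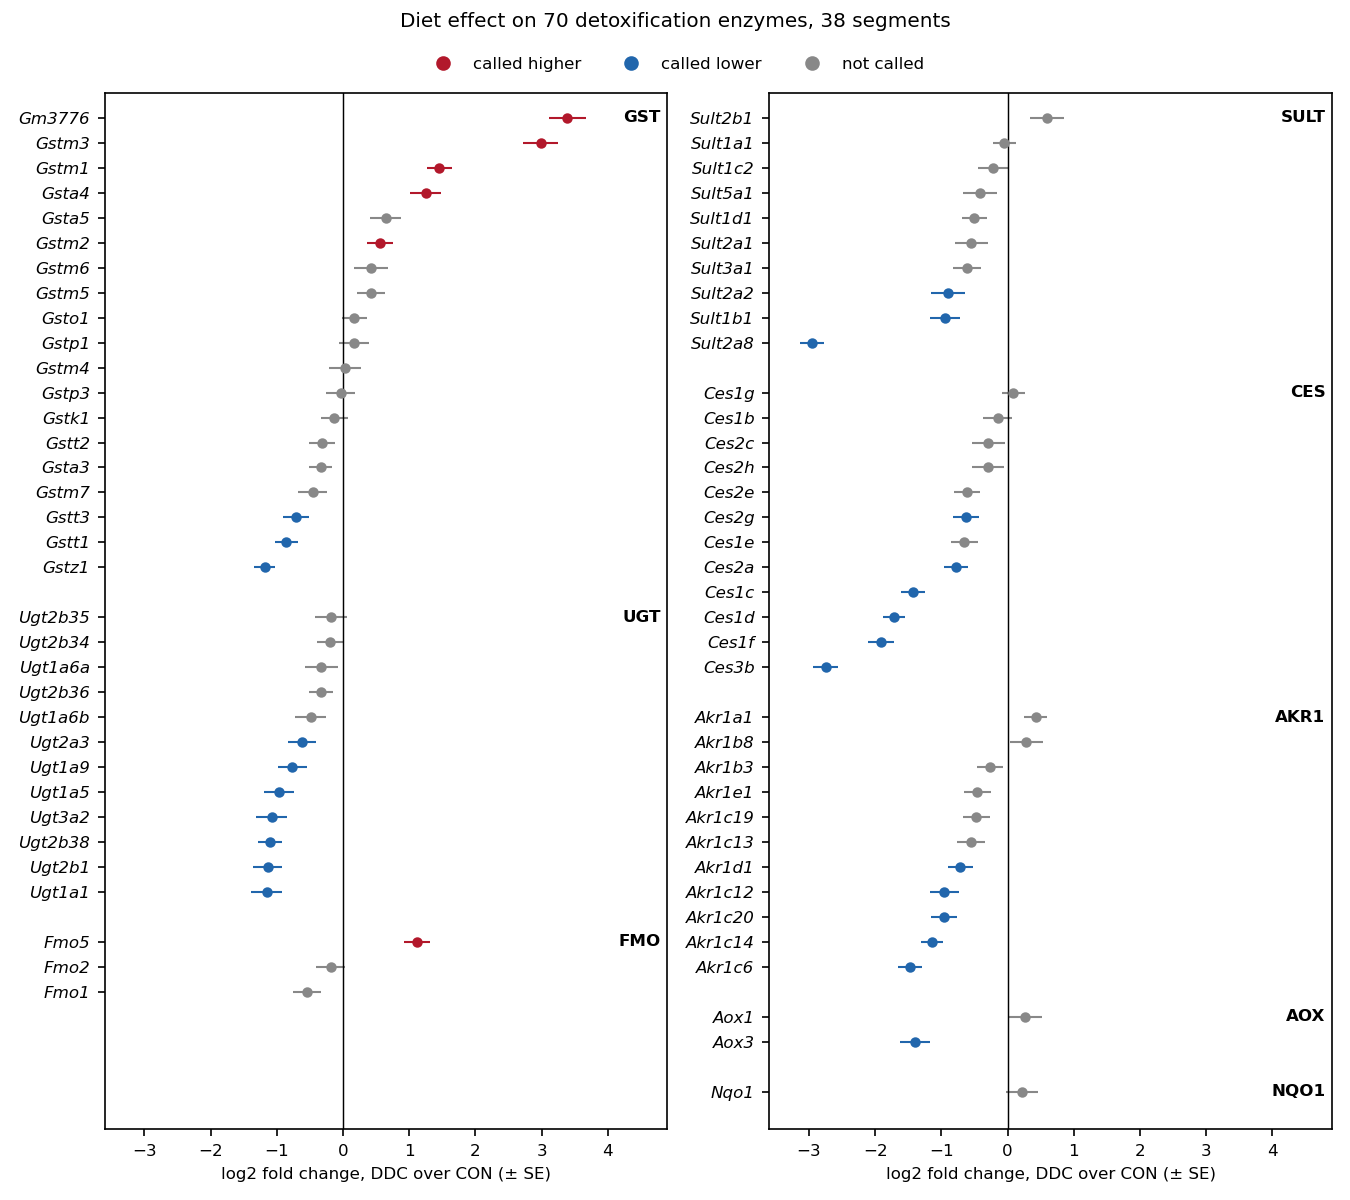
Log2 fold change of 70 of the 71 members on DDC against CON over all 38 segments (horizontal axis, edgeR estimate with its standard error as the bar), ordered within enzyme family, with red points for members called higher, blue for members called lower at an adjusted p under 0.05, and grey for the rest. Gm3776 at 3.39 is the highest member, and Sult2a8 at -2.95 is the lowest.

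The rise was led by Gm3776 (chr9:78257129-78269166, GRCm38.p6), a predicted glutathione S-transferase of the alpha class. Its level in CON segments was 1.31 to 10.5 with a median of 3.85, and 9 of the 16 CON segments had a single count. In DDC segments it was 6.30 to 159 with a median of 28.3. The ranges overlapped only at the low end of the DDC segments, and the log2 fold change was 3.39 ± 0.28 (SE, adjusted p = 2.18e-18, edgeR). In PanCK segments of Trail.mye mice the CON levels were 2.63, 2.63, 3.50 and 4.20, and the DDC levels were 18.1, 25.2, 29.5, 30.1 and 33.3. In WT PanCK segments they were 3.50, 5.25 and 10.5 on CON and 6.30, 6.30, 23.6 and 27.2 on DDC. The Trail.mye groups were apart and the WT groups overlapped. The highest levels were in the parenchyma, where both WT DDC segments (154 and 159) and both Trail.mye DDC segments (70.0 and 126) stood above the 3 CON segments (5.25, 1.75 and 2.21). Gm3776 is close in sequence to other alpha Gst genes, and probes could share signal among them.

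Gstm3, a mu class transferase in the cluster of 7 Gstm genes on chromosome 3 (chr3:107963696-107969174), rose by a log2 fold change of 2.98 ± 0.26 (SE, adjusted p = 6.31e-17, edgeR). The CON range was 2.63 to 15.8 with a median of 5.39, and the DDC range was 8.40 to 247 with a median of 30.1. In IBA1 periportal segments, WT CON levels were 5.25 and 5.25, WT DDC levels 17.5, 21.0, 26.3 and 42.0, Trail.mye CON levels 3.50, 6.57, 6.57 and 8.53, and Trail.mye DDC levels 24.2, 30.9, 36.0, 39.5 and 43.6. Every DDC segment there was above every CON segment of the same genotype, and the same held in 5 of the 6 combinations of genotype and segment class. The exception was the WT PanCK class, with 3.50, 5.25 and 10.5 on CON and 8.40, 10.5, 10.5 and 14.8 on DDC. The number of all genes that separated in this way was not counted. Both WT CON IBA1 periportal segments had 1 count, and against a floor of 3 counts per segment the WT DDC mean was at least 1.69-fold higher.

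Its neighbour Gstm1 (chr3:108012250-108017973), the mu class enzyme that is abundant in mouse liver, never fell to a single count. In parenchymal segments its level was 179, 90.5 and 101 on CON and 518, 522, 396 and 953 on DDC. All 4 DDC segments were above all 3 CON segments. In PanCK segments the groups overlapped in WT mice (42.0, 78.8 and 89.3 on CON; 60.9, 84.0, 96.4 and 116 on DDC) and nearly separated in Trail.mye mice (28.9, 36.8, 54.6 and 112 on CON; 109, 167, 172, 194 and 224 on DDC). Over all segments the log2 fold change was 1.46 ± 0.19 (SE, adjusted p = 1.3e-09, edgeR).

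Gsta4, which conjugates reactive aldehydes from lipid peroxidation, had a log2 fold change of 1.25 (SE 0.23, adjusted p = 1.73e-05, edgeR). Its median went from 5.25 on CON to 10.5 on DDC, and the clearest levels were in WT DDC parenchyma at 54.0 and 56.0 against 10.5 in the WT CON segment. Gstm2, another mu class gene of the cluster, passed the threshold narrowly at 0.56 (adjusted p = 0.0438) and did not have a higher DDC mean in every combination of genotype and class, unlike the other 5. The Gstm2 call was kept under 0 of 9 alternatives and in 22 of 38 fits that each left out 1 segment. Fmo5, a flavin monooxygenase that inserts oxygen into ketones, was the single riser outside the Gst family. Its levels in WT PanCK segments were 3.50, 10.5 and 10.5 on CON and 25.2, 39.9, 44.6 and 49.4 on DDC, with no overlap, and over all segments its log2 fold change was 1.12 (SE 0.19, adjusted p = 3.86e-06).

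The risers were also set against the hepatocyte markers, on a scale added after seeing the data. The marker sum itself was lower on DDC (median 4019, against 12184 on CON), so a gene with an unchanged level rises on this scale. Akr1a1, which was not called, went from a median of 2.97 on CON to 10.7 on DDC. Per 1000 units of summed hepatocyte marker signal, Gstm1 was 3.16 to 19.5 in the 16 CON segments and 22.4 to 116 in the 22 DDC segments. The corresponding ranges were 0.0986 to 1.54 and 1.97 to 15.4 for Gm3776, and 0.610 to 5.73 and 7.23 to 20.2 for Fmo5. These 3 ranges did not overlap between diets, and how often this held over all genes was not counted. Those of the other 3 risers did, at 0.185 to 2.64 on CON and 2.63 to 30.1 on DDC for Gstm3, 0.234 to 1.15 and 0.723 to 5.88 for Gsta4, and 0.197 to 3.74 and 0.552 to 12.6 for Gstm2.

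**Figure D2:**
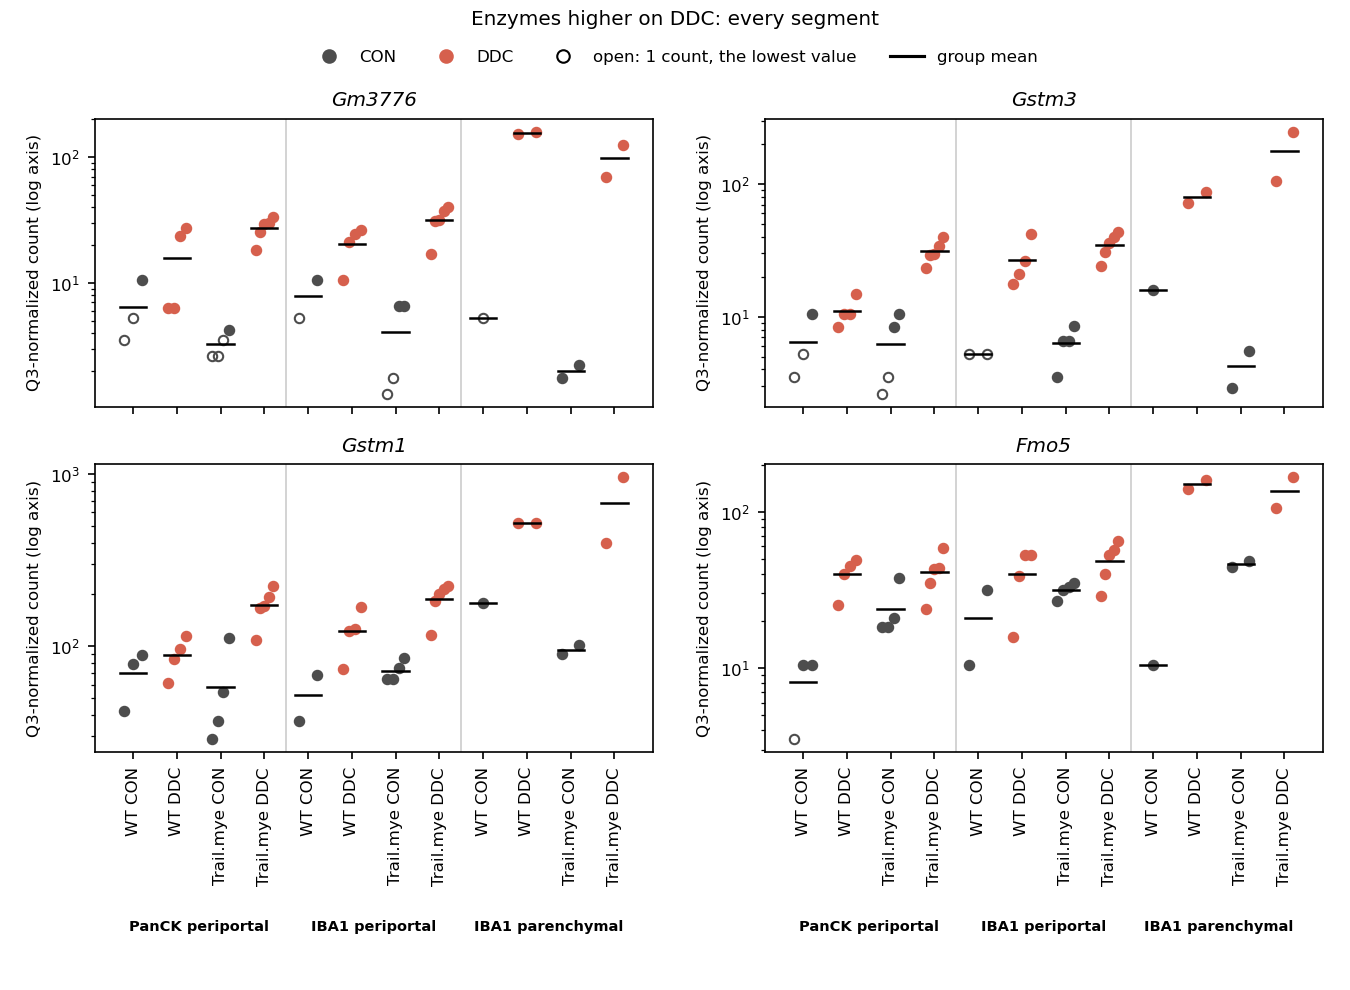
Q3-normalised level of Gm3776, Gstm3, Gstm1 and Fmo5, which rose on DDC (vertical axis, log scale), one point for each of the 38 segments, grouped by segment class, genotype and diet, with a bar at each group mean and open points for segments at 1 count. DDC segments lie above CON segments in most groups, and the parenchymal DDC segments are the highest for Gm3776 (70.0 to 159) and Gstm1 (396 to 953).

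Among the genes that fell, Sult2a8, a hepatic sulfotransferase that acts on bile acids, had the lowest fold change. PanCK levels were 10.5, 21.0 and 26.3 in WT CON, 10.5, 10.5, 17.5 and 18.4 in Trail.mye CON, and 1.37, 1.68, 2.80, 2.83 and 3.68 in Trail.mye DDC segments. All 4 WT DDC PanCK segments had 1 count. In the parenchyma the WT CON segment was at 121 against 10.5 and 14.0 in WT DDC, and Trail.mye segments were at 47.9 and 50.9 on CON against 2.63 and 3.50 on DDC. Every DDC segment was below every CON segment of its genotype in all 3 segment classes. The log2 fold change over all segments was -2.95 ± 0.18 (SE, adjusted p = 4.62e-26, edgeR). In WT PanCK segments the CON mean was at least 2.76-fold higher than the floor of 3 counts per DDC segment.

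The 4 members Sult2a8, Ces3b, Ces1d and Ces1f showed this full separation in 6 of 6 combinations of genotype and class. How many of all genes did so was not counted, and the parenchymal groups held only 1 or 2 segments each. Ces3b, a liver carboxylesterase, was 26.3, 38.5 and 57.8 in WT CON PanCK segments and 2.63, 4.94, 10.5 and 12.6 in WT DDC. In Trail.mye it was 18.4, 23.1, 26.3 and 38.5 on CON and 2.10, 3.78, 6.46, 6.96 and 8.22 on DDC. Its log2 fold change was -2.75 (SE 0.18, adjusted p = 2.3e-23, edgeR). Ces1d, a triglyceride hydrolase, fell by 1.71 on the log2 scale (adjusted p = 2.02e-14), from a CON range of 21.0 to 78.8 to a DDC range of 5.25 to 31.5. Ces1f, a carboxylesterase of the same cluster on chromosome 8, had a log2 fold change of -1.92 (adjusted p = 1.62e-13). In WT IBA1 periportal segments Ces1f was 31.5 and 57.8 on CON and at 1 count in all 4 DDC segments, a difference of at least 3.09-fold. In WT PanCK segments 2 of 3 CON and 3 of 4 DDC segments were at 1 count for Ces1f, so its separation in that group followed depth.

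Ces1c, a secreted carboxylesterase of plasma, also fell. IBA1 periportal levels were 147 and 257 in WT CON, 5.25, 31.5, 49.0 and 63.0 in WT DDC, 192, 201, 231 and 261 in Trail.mye CON, and 30.7, 50.6, 57.5, 59.8 and 67.5 in Trail.mye DDC. The diets did not overlap in either genotype. Its log2 fold change over all segments was -1.42 (SE 0.18, adjusted p = 6.31e-10), and -0.34, no longer called, with the hepatocyte marker sum in the fit. Per 1000 units of hepatocyte marker signal, its median was 14.8 in CON and 13.2 in DDC segments. Ces2a and Ces2g, esterases of the intestine and liver, had log2 fold changes of -0.78 and -0.63 (adjusted p = 0.00123 and 0.0466). The Ces2g call was kept under 3 of 9 alternatives and in 23 of 38 fits that each left out 1 segment, and its estimate changed sign after thinning. The Ces genes not called were Ces1b, Ces1e, Ces1g, Ces2c, Ces2e and Ces2h, from -0.65 for Ces1e (adjusted p = 0.055) to 0.09 for Ces1g.

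Ces1b and Ces1c lie side by side, and stretches of bases before their starts, at different distances from them, are nearly the same. They are shown because one gene was called and its neighbour was not. The sequences are from RefSeq, GRCm38.p6, minus strand, 5′ to 3′, at chr8:93080018-93080117 for Ces1b and chr8:93131371-93131470 for Ces1c. Capitals mark bases that differ in the alignment, which also contains 16 gap positions in its full length. The last base shown lies 1 base before the Ces1b gene but 88 bases before the Ces1c gene.
Ces1b: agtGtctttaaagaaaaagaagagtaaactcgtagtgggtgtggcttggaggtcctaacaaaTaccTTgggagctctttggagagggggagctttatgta
Ces1c: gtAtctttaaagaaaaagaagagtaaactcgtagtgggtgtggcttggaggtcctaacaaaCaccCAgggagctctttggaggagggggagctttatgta
Over the 144 aligned bases before the annotated starts, with gap positions left out, 95.1% were identical. Ces1b had a log2 fold change of -0.15 (adjusted p = 0.946) against -1.42 for Ces1c, and Ces1b was at 1 count in 14 of 38 segments against 1 of 38 for Ces1c, so the 2 genes were not measured at the same depth.

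The aldo-keto reductases that fell were Akr1c6, Akr1c14, Akr1c12, Akr1c20 and Akr1d1. Akr1c6, a hydroxysteroid dehydrogenase, was 42.0 and 47.3 in WT CON IBA1 periportal segments and 5.25, 5.25, 15.8 and 35.0 in WT DDC. In Trail.mye it was 34.8, 38.5, 44.6 and 78.8 on CON and 8.53, 8.65, 11.3, 12.1 and 12.7 on DDC. Neither genotype overlapped between diets there. Its log2 fold change over all segments was -1.48 (SE 0.18, adjusted p = 2.44e-10, edgeR). Akr1c14, which acts on steroid hormones, had -1.14, Akr1c20 -0.95, and Akr1d1, the steroid reductase of bile acid synthesis, -0.71. In a fit of WT segments only, none of these Akr1 genes that fell was called. Their log2 fold changes there ran from -0.96 for Akr1c6 (adjusted p = 0.113, edgeR) to -0.015 for Akr1d1. Akr1a1, an aldehyde reductase, Akr1b3, aldose reductase, Akr1b8, Akr1c13, Akr1c19 and Akr1e1 were not called, with log2 fold changes from -0.56 to 0.42.

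Akr1c12 and Akr1c13 formed the closest of 861 pairs compared, with 95.2% of 230 aligned bases before their starts identical. These pairs came from the 42 members with a sequence window at their outermost annotated start. The stretches shown are at chr13:4279416-4279515, minus strand, for Akr1c12 and chr13:4191068-4191167, plus strand, for Akr1c13, with differing bases in capitals. They end 17 bases before the Akr1c12 gene and 1 base before the Akr1c13 gene.
Akr1c12: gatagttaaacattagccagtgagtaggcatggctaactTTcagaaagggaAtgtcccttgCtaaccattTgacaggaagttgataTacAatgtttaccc
Akr1c13: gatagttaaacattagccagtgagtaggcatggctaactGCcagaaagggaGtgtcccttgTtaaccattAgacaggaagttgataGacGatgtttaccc
Akr1c12 was called at -0.95 (adjusted p = 0.00105) and Akr1c13 was not at -0.56 (adjusted p = 0.141). The difference between the 2 genes was not tested, and probes for such close paralogs can share signal.

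Of the 12 Ugt genes, 7 fell. Ugt1a1, the bilirubin glucuronosyltransferase, had a log2 fold change of -1.15 (adjusted p = 8.08e-05), Ugt2b1 -1.13 (adjusted p = 0.000105) and Ugt2b38 -1.10. Ugt2b1 in the parenchyma was 42.0 in the WT CON segment and 7.50 and 10.5 in WT DDC, and 11.1 and 11.1 in Trail.mye CON against 2.63 and 3.50 in Trail.mye DDC. Ugt3a2 (-1.08), Ugt1a5 (-0.96), Ugt1a9 (-0.76) and Ugt2a3 (-0.62) were the others. The uncalled Ugt1a6a, Ugt1a6b, Ugt2b34, Ugt2b35 and Ugt2b36 had negative estimates between -0.49 and -0.18. Ugt1a transcripts share their last exons, so a probe there would not separate Ugt1a1, Ugt1a5, Ugt1a6a, Ugt1a6b and Ugt1a9. Among sulfotransferases, Sult1b1 (-0.94), which acts on phenols and thyroid hormone, and Sult2a2 (-0.90, adjusted p = 0.0211), which acts on hydroxysteroids, were also called lower, although Sult2a2 was at 1 count in 52.6% of segments. Sult1a1, the phenol sulfotransferase, was at -0.05, Sult2b1, which sulfates cholesterol, at 0.59, and Sult1c2, Sult1d1, Sult2a1, Sult3a1 and Sult5a1 between -0.61 and -0.22, none of them called.

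Gstz1, the maleylacetoacetate isomerase of tyrosine breakdown, and the theta class genes Gstt1 and Gstt3 were the Gst genes that fell. Gstz1 levels in IBA1 periportal segments were 73.5 and 89.3 in WT CON, 5.25, 15.8, 21.0 and 21.0 in WT DDC, 39.4, 42.0, 52.5 and 56.0 in Trail.mye CON, and 16.3, 17.0, 17.9, 18.0 and 22.3 in Trail.mye DDC. The diets were fully apart in both genotypes. The log2 fold change over all segments was -1.18 (SE 0.16, adjusted p = 6.45e-09, edgeR), with -0.85 for Gstt1 and -0.71 for Gstt3. The uncalled Gst genes were Gsta3, Gsta5, Gstk1, Gstm4, Gstm5, Gstm6, Gstm7, Gsto1, Gstp1, Gstp3 and Gstt2, from -0.46 for Gstm7 to 0.65 for Gsta5 (adjusted p = 0.0585). Thus the 7 Gstm neighbours were not called together, with Gstm1 and Gstm3 higher, Gstm2 narrowly past the threshold and the other four not called.

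**Figure D3:**
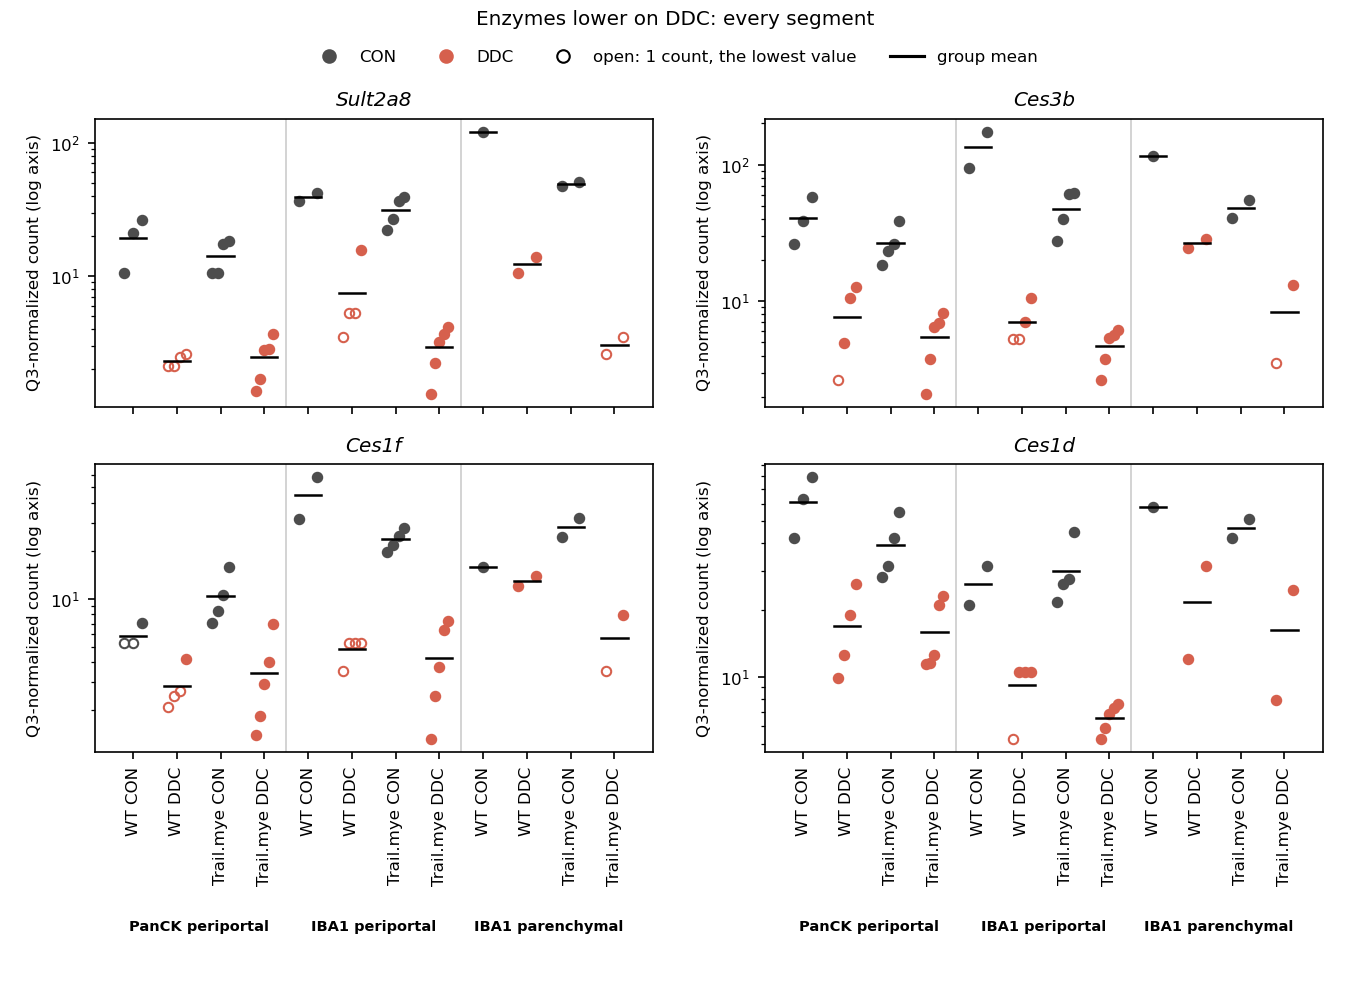
Q3-normalised level of Sult2a8, Ces3b, Ces1f and Ces1d, which fell on DDC (vertical axis, log scale), one point per segment, grouped by segment class, genotype and diet, with a bar at each group mean and open points for segments at 1 count. For Sult2a8 and Ces3b every DDC segment lies below every CON segment of its genotype and class.

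The NRF2 pathway was followed further because several of its textbook targets are members. Nqo1, the quinone reductase often used as its readout, was near the floor and was not called. Its median was 5.25 in CON and 4.92 in DDC segments, and its log2 fold change was 0.22 (adjusted p = 0.717). Of 25 other measured NRF2 pathway genes, 6 rose and 1 fell. The risers were the ferritin chains Fth1 (0.81) and Ftl1 (0.68), Nfe2l2 itself (0.77), the haem oxygenase Hmox1 (0.65), Osgin1 (0.62) and the pentose phosphate enzyme Pgd (0.60), and the gene that fell was catalase, Cat (-1.26). The glutathione synthesis subunits Gclc (0.46) and Gclm (0.05), Txnrd1 (0.43), Srxn1 (0.55) and Keap1 (-0.06) were not called. Of 16 genes of glutathione supply and use, Gpx3 (1.23), Gpx4 (1.13) and Cth (0.82) rose, and Cbs (-0.94), Mgst1 (-0.73) and Gpx1 (-0.46) fell.

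The letters of the antioxidant response element were searched in the members' promoters to see whether risers and fallers differed. The motif was TGACNNNGC on both strands, in windows of 250 bases before to 50 bases after each RefSeq start, which 58 of the 71 members had. It occurred in 4 of 58 members (6.90%), against 16.8% of the 8428 measured genes with a window and 12.4% of all 32851 windows. None of 5 risers and none of 20 fallers with a window held it, and the 4 members that did (Gsta3, Gstm5, Gstm7 and Akr1c19) were not called. Elements farther from the start lie outside these windows. The match in Gsta3 (chr1:21240438-21240497, plus strand) and that in Gstm5 (chr3:107895786-107895845, plus strand) are shown with the motif in capitals.
Gsta3: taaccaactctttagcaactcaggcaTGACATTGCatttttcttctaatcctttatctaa
Gstm5: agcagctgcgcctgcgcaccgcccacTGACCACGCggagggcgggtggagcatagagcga

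Related enzymes were counted in the same fit. Of 30 other conjugation and hydrolysis enzymes, 13 fell and none rose (median log2 fold change -0.42), led by the amine methyltransferase Inmt (-2.37), the paraoxonase Pon1 (-1.84), the bile acid CoA ligase Slc27a5 (-1.65), the epoxide hydrolase Ephx2 (-1.50) and the arylacetamide deacetylase Aadac (-1.46). Others that fell were Glyat (-1.31), Acsm1 (-1.13), Gnmt (-1.12), Adh1 (-0.92), Adh4 (-0.92), Maob (-0.74) and Acsm3 (-0.66). Of 10 cofactor genes (median 0.21), Ugdh, which makes UDP-glucuronic acid, rose (0.89), while Papss2, which makes the sulfate donor (-0.82), and Ugp2 (-0.60) fell. Of 10 xenobiotic receptor genes (median -0.39) 4 fell, namely Hnf4a (-0.75), Ppara (-0.73), Nr1i3, the constitutive androstane receptor (-0.67), and Rxra (-0.61). Nr1i2 (0.11) and Ahr (0.03) were not called.

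Sult2a8 and Ces3b were called lower in every diet contrast within a segment class. The periportal contrasts were run within each genotype, and the parenchymal one took the genotypes together. There were fewer calls in the shallow WT segments. In WT PanCK segments 1 member rose and 4 fell, where 0.91% of all genes were called (0.493% higher, 0.417% lower). Fmo5 rose (2.35, adjusted p = 0.0396), and Aox3 (-2.85), Ces3b (-2.34), Ces1d (-1.84) and Sult2a8 fell. In Trail.mye PanCK segments 4 rose and 6 fell, against 2.1% of all genes (1.43% higher, 0.664% lower). Gm3776 (2.99), Gstm3 (2.23), Gstm1 (1.62) and Gstp1 (1.44) rose, and Sult2a8 (-2.35), Ces3b (-2.09), Sult2a1 (-1.53), Ces1d (-1.36) and Fmo2 (-1.29) were among those that fell. These counts rest partly on single segments. The WT PanCK count went from 5 to 2 without the WT CON segment of area 003 and to 3 without WT CON 001 or 005 or WT DDC 007 or 013, and the Trail.mye count went from 10 to 6 without CON 028.

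In IBA1 periportal segments of WT mice none rose and 8 fell, against 1.19% of all genes (0.142% higher, 1.04% lower). They were Aox3, Ces3b (-4.23), Ces1f, Sult2a8 (-2.47), Ces1c (-2.41), Gstz1 (-2.32), Ugt2b38 (-2.23) and Gstp1 (-2.22). This count was 2 without the WT CON segment of area 005, 1 of only 2 in its group. In Trail.mye mice 5 rose and 23 fell, against 9.38% of all genes (4.2% higher, 5.18% lower). Gm3776 (2.69), Gstm3 (2.32), Gstm1 (1.38), Gsta5 (1.24) and Fmo2 (1.12) rose, and the members that fell included Ces3b (-3.25), Sult2a8 (-3.18), Ces1f (-2.27) and Akr1c6 (-2.16). Fmo2, a flavin monooxygenase of lung and other tissues, thus fell in the Trail.mye PanCK segments (13.1, 17.5, 28.9 and 37.8 on CON; 7.00, 7.98, 9.45, 11.3 and 15.5 on DDC) and rose in the IBA1 periportal ones (3.94, 3.94, 8.75 and 11.2 on CON; 11.3, 16.2, 16.6, 18.5 and 20.4 on DDC). In the parenchyma, where the fit had 4 residual degrees of freedom, 5 rose and 5 fell, against 0.759% of all genes (0.294% higher, 0.465% lower). Gm3776 (5.45), Gstm3 (4.96), Gstm1 (2.38), Fmo5 (1.89) and Gsta4 (1.75) rose, and Sult2a8 (-3.54), Ces3b (-2.22), Ugt2b1 (-2.15) and Akr1c6 (-1.58) were among those that fell. Leaving out Trail.mye DDC 037 or 038 gave 6 or 5 calls in place of 10.

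**Figure D4:**
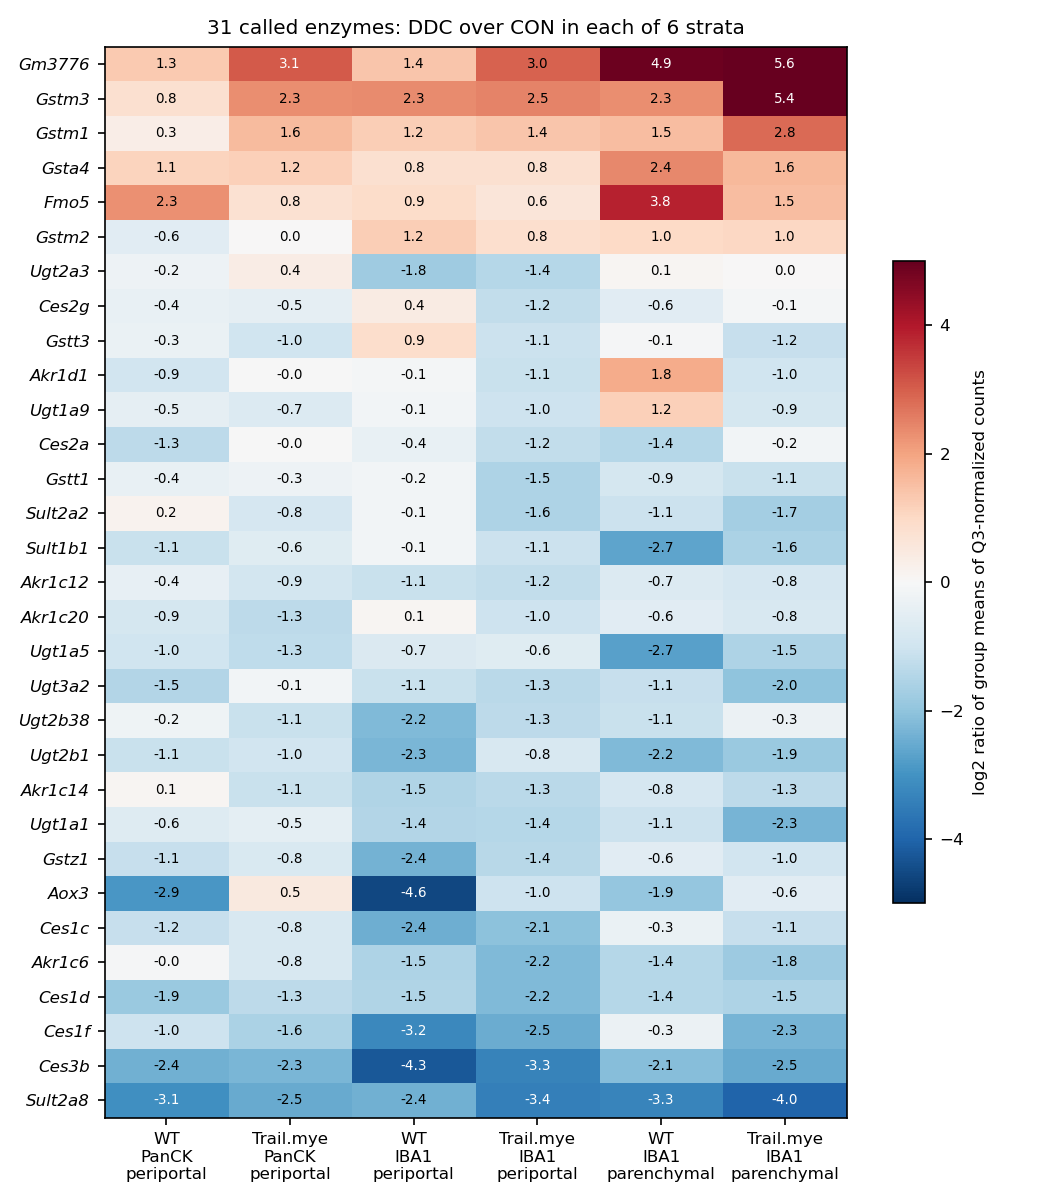
Log2 ratio of mean DDC to mean CON Q3-normalised level for 31 of the 32 members called over all segments (rows) in each of the 6 combinations of genotype and segment class (columns), with the ratio printed in each cell and coloured from lower (blue) to higher (red) on DDC. Sult2a8, Ces3b, Ces1d and Ces1f are lower in all 6 columns, and Gm3776 and Gstm3 are higher in all 6.

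Levels also differed by place. In IBA1 segments, 12 members were higher in parenchymal than in periportal segments and none was lower, where 2.23% of all genes were called, 1.35% higher and 0.882% lower. The largest differences were those of Gm3776 (log2 difference 1.63), Gstm3 (1.61), Gstm1 (1.54), Gsta4 (1.30), Ces1c (1.27) and Fmo5 (1.22), followed by Akr1c6 (0.96), Gsta3 (0.93), Gstp1 (0.87), Ces1d (0.85), Sult2a8 (0.80) and Sult1d1 (0.78). Of the 6 members that rose on DDC, 5 (not Gstm2) were thus higher in the parenchyma, as were Ces1c, Akr1c6, Ces1d and Sult2a8 of those that fell. The hepatocyte marker sum was 5700 to 19020 there, against 1697 to 17889 in IBA1 periportal segments. Its part in the difference was not tested. Between stains in periportal areas, 3 members were higher in PanCK than in IBA1 segments and 9 were lower, against 15.8% of all genes (6.55% higher, 9.28% lower). The share of members called was 16.9%, close to that of all genes, so the members did not stand out between stains. Ces1d (0.89), Sult2b1 (0.88) and Gstm5 (0.74) were higher in PanCK, and Akr1c6 (-0.87), Sult2a8 (-0.77), Ces1f (-0.70), Ces1c (-0.68) and Ugt2b38 (-0.68) were the lowest. Akr1c14, Ces1g, Gstm2 and Gstz1 completed the lower group. Of the 14 hepatocyte markers, 12 were lower in PanCK segments too. Without the Trail.mye DDC PanCK segment of area 035 the count was 23 in place of 12.

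The study also asked what loss of Tnfsf10 in myeloid cells changes under DDC. Few members were called here. On DDC, Gstm3 was the only member called between genotypes in PanCK segments, where 0.152% of all genes were called and 0.0948% were higher in Trail.mye. Its levels were 8.40, 10.5, 10.5 and 14.8 in WT DDC and 23.2, 29.2, 29.4, 34.0 and 40.0 in Trail.mye DDC segments, without overlap. Totals were 46675 to 61665 counts in the WT DDC and 172180 to 836971 in the Trail.mye DDC group. The log2 difference was 1.51 ± 0.35 (SE, adjusted p = 0.0325, edgeR). The call was lost under 5 of 6 other settings, with adjusted p from 0.0529 to 0.443, and without any of the 4 WT DDC segments or Trail.mye DDC 032 or 036. On DDC in IBA1 periportal segments no member was called, where 0.019% of all genes were. An unadjusted p under 0.05 by edgeR was found for 2 of 71 members and 251 of 10547 genes. TMM factors, DESeq2 and limma also called none.

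Aox3 and Gstp1 had diet changes that differed between the genotypes in both periportal classes, tested as an interaction. Aox3 is the main hepatic aldehyde oxidase of the mouse. Its levels in PanCK segments were 17.5, 21.0 and 68.3 in WT CON and 2.10, 2.63, 4.20 and 9.89 in WT DDC, against 2.63, 3.50, 6.30 and 7.88 in Trail.mye CON and 3.50, 5.66, 6.70, 8.82 and 10.5 in Trail.mye DDC. In IBA1 periportal segments they were 84.0 and 142 in WT CON with all 4 WT DDC segments at 1 count, against 6.57, 7.00, 11.8 and 23.6 in Trail.mye CON and 3.09, 5.25, 5.66, 7.13 and 9.00 in Trail.mye DDC. WT CON segments were the group that stood apart. The WT CON mean was at least 7.82-fold above the floor of the WT DDC segments in IBA1. The interaction, the diet change in Trail.mye minus that in WT on the log2 scale, was 3.28 ± 0.69 in PanCK and 3.67 ± 0.68 in IBA1 periportal segments (SE, adjusted p = 0.00919 and 0.00459, edgeR).

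Gstp1, the pi class transferase, had levels of 193, 210 and 263 in WT CON and 90.3, 129, 146 and 153 in WT DDC PanCK segments, against 21.0, 34.1, 44.1 and 66.5 in Trail.mye CON and 52.5, 113, 113, 125 and 152 in Trail.mye DDC. In IBA1 periportal segments WT CON was at 462 and 767 and WT DDC at 78.8, 110, 144 and 194, with Trail.mye CON at 40.7, 50.6, 57.8 and 66.5 and Trail.mye DDC at 46.8, 103, 105, 108 and 136. WT DDC segments lay below WT CON segments in both classes, a fall called in IBA1 segments (-2.22, adjusted p = 0.000573), whereas in Trail.mye PanCK segments the rise was called (1.44, adjusted p = 0.00657). The DDC groups of both genotypes overlapped. The interaction was 2.23 ± 0.50 in PanCK (adjusted p = 0.0196) and 3.10 ± 0.53 in IBA1 segments (adjusted p = 0.00399, edgeR). In PanCK segments 2 members were called by this test, both higher, against 0.114% of all genes (0.104% higher, 0.00948% lower), and in IBA1 segments 2 against 0.0569%, all of them higher. Both PanCK calls were lost without WT CON 003, WT DDC 009 or Trail.mye CON 028, and 1 of the 2 without WT DDC 011, Trail.mye CON 027 or 029 or Trail.mye DDC 034 or 036. In IBA1 segments both were lost without WT CON 005 and 1 without WT DDC 013.

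Over all segments Aox3 fell by 1.40 on the log2 scale (adjusted p = 1e-06), with -2.94 in WT segments alone and -0.50 (adjusted p = 0.221) in Trail.mye alone. Aox1 (0.26) and Fmo1 (-0.55) were not called.

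A Y-linked gene moved with the same groups. Gm21783, which RefSeq places on the Y chromosome, had 1 to 10 counts in Trail.mye CON segments (levels 1.31 to 6.30), against 4 to 35 counts (levels 14.0 to 126) in WT segments and 7 to 168 (levels 18.4 to 97.8) in Trail.mye DDC segments. Its interaction was 4.46 in PanCK (adjusted p = 5.56e-06) and 4.23 in IBA1 periportal segments (adjusted p = 0.00459). Ddx3y, Eif2s3y and Uty were near the floor in the shallow segments. The labels do not give the sex of the mice, and the paper describes the experimental mice as matched for age and gender. Hepatic Sult2a genes are known to be higher in female mice and Gstp1 in males. Of the 4 measured sex chromosome genes, 3 were higher on DDC over all segments (median log2 fold change 0.97), 2 in Trail.mye IBA1 periportal (1.07) and 1 in Trail.mye PanCK segments (1.16), and none was called in WT periportal segments. The part of this difference in the Aox3, Gstp1, Sult2a1 and Sult2a2 results and in the other diet results was not tested. The genotype contrasts on DDC compare DDC segments only, but the Trail.mye CON segments enter the estimate of the spread behind their p-values.

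**Figure D5:**
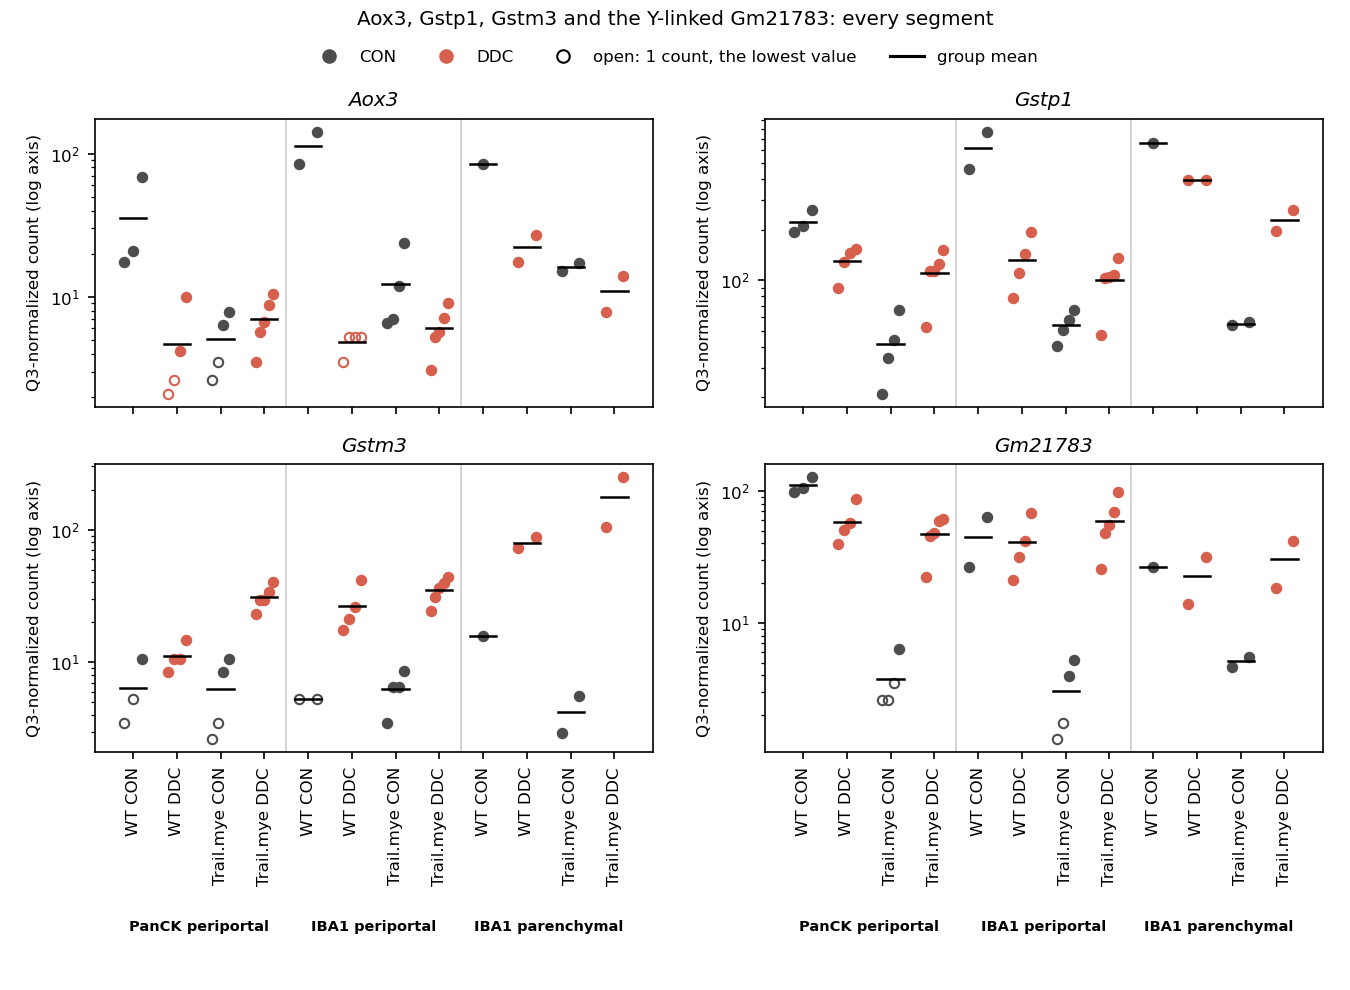
Q3-normalised level (vertical axis, log scale) of Aox3, Gstp1, Gstm3 and the Y-linked Gm21783, one point per segment, grouped by segment class, genotype and diet, with a bar at each group mean and open points for segments at 1 count. For Aox3 and Gstp1 the WT CON segments are the highest within each segment class (Gstp1 193 to 767 over the classes). For Gstm3 the Trail.mye DDC PanCK segments (23.2 to 40.0) lie above the WT DDC ones (8.40 to 14.8), and for Gm21783 the Trail.mye CON segments are the lowest.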

How the data were processed

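Mouse whole-transcriptome GeoMx probe counts were analysed in 38 segments. According to the study's methods, the authors sequenced the released barcodes on a NextSeq2000 after 18 PCR cycles, dropped segments and genes low against the limit of quantitation, and scaled each segment to its upper quartile (Q3). The submitters' processing notes name bcl2fastq and mm10. The deposited counts have a minimum of 1 and were treated as estimated counts, rounded before the fit, since the authors' table held values that were not whole in 3 genes, none of them a member. The sources used here do not state how barcodes were deduplicated. The deposited Q3-normalised signal equals those counts times 1 factor per segment, to a relative 9.73e-10. The authors' table holds 10548 targets, 10547 of them genes.

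The members and lists were chosen with earlier results of these data known. Counts were tested with edgeR 4.0.16 in R 4.3.3 (glmQLFit and glmQLFTest, upper-quartile factors at the 75th percentile, all 10547 genes, Benjamini-Hochberg, adjusted p under 0.05), with a term per segment class and genotype plus diet over all 38 segments, and with a term per group within each segment class (genotype plus diet in the parenchyma). Stain and region were tested with a term per genotype and diet group. All labelled groups came from the sample titles. Alternatives were TMM factors, DESeq2 1.42.0, limma 3.58.1 on log2(Q3-normalised count + 1), a filter on low counts (filterByExpr), thinning to the smallest total, counts of 1 set to 0, each segment left out and the ROI (area) as a block. WT only, Trail.mye only and the hepatocyte marker covariate were added after seeing the data. Scripts were tested on simulated data. ROI numbers pair PanCK with IBA1 segments of 15 areas. Their deviations correlated at -0.016 to 0.528 (median 0.032, 3089 genes), over 0.1 in 5. "At least" folds use a floor of 3 counts per segment.

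Genes named are the 12 highest and 12 lowest called members for diet over all segments, up to 5 in each direction elsewhere, Nqo1, Gm3776, called genes of the pathway lists and Alb, Krt19 and C1qa. Others were named after their values were seen, so that every member is accounted for. Gene positions and promoter windows are from RefSeq (GRCm38.p6), in which 70 of 71 members matched. Promoters were aligned with Biopython 1.88. Results for 1 member and for 1 gene of a pathway list, both counted in the totals, are not reported here. Gsta5 was not matched, and 13 members had no promoter window.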

Additional observations from a re-analysis of the deposited data

Results flagged for a closer look

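Diet changes that differed between WT and Trail.mye segments by a test of the difference were those of Aox3 (3.28 in PanCK and 3.67 in IBA1 periportal segments, log2) and Gstp1 (2.23 and 3.10).

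Of the 32 members called over all segments, 31 were checked for a segment far from the others of its group, in 186 groups of 4 or 5 segments, and 19 were found. At the critical values used, chance gives about 1 in 20 groups, a rate that does not allow for values tied at 1 count. Of WT DDC IBA1 periportal segments, area 013 was apart for Akr1c20 (7.00), Akr1d1 (14.0) and Gsta4 (21.0), area 009 for Akr1c14 (15.8) and Ugt2b38 (26.3), and area 007 for Ces1d (5.25) and Sult2a8 (15.8). Of WT DDC PanCK segments, area 011 was apart for Ces2g (7.88) and, each at 5.25, for Ugt1a1, Ugt2b1 and Ugt3a2. For these 4 genes area 011 had 3 counts (Ces2g) or 2 counts (the others) and the other 3 segments 1 count each, and Akr1c20 had 2 counts in area 013 against 1 count in each of the others, so they differ by 1 or 2 counts at the floor. Of Trail.mye CON PanCK segments, area 026 was apart for Gsta4 (10.5), and area 029 for Fmo5 (37.8) and Ugt2a3 (8.40). The Trail.mye CON IBA1 periportal segment of area 029 was apart for Ugt1a1 (18.4). Of Trail.mye DDC IBA1 periportal segments, area 033 was apart for Gstt1 (1.62), area 034 for Gstz1 (22.3) and area 036 for Akr1c14 (12.0) and Gstt3 (2.25).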

How the results depend on the processing

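Of the 32 members called for diet over all segments, 9 kept their call under every alternative and every left-out segment, namely Gm3776, Gstm3, Fmo5, Sult2a8, Ces3b, Ces1d, Ces1f, Gstz1 and Ugt2b1, and 26 of 32 kept it under every left-out segment. A value of 1 count gives only a lower bound on a fall. The 32 calls became 18 with the filter on low counts (22 members in that fit), 18 after thinning, 21 with counts of 1 set to 0 and 14 in WT segments only, and were 28 to 37 under the others. The share of all genes called under each setting is not given here or in the paragraphs that follow. A change in the number of called members therefore cannot be set against that of all genes. With TMM, DESeq2 and limma there were 34, 33 and 28. The limma fit with the ROI as a random replicate block also gave 28. Estimates changed sign after thinning for Ces2g (0.15 over all segments) and Ugt3a2 (0.44 in Trail.mye IBA1 periportal segments), and in WT segments only for Gstt3 (0.088) and Ugt1a9 (0.14). The cause was not tested.

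In WT PanCK segments DESeq2 called 3 members in place of 5, and after thinning Trail.mye PanCK segments gave 4 in place of 10 and Trail.mye IBA1 periportal segments 9 in place of 28. In WT IBA1 periportal segments limma called 14 in place of 8. The genotype call on DDC in PanCK segments went from 1 to 0 with TMM, DESeq2, limma, thinning or counts of 1 set to 0, and to 4 with the filter. The 2 interaction calls in PanCK segments went to 0 with TMM, DESeq2 or thinning and 1 with the filter, and the 2 in IBA1 segments to 1 with DESeq2 or thinning. PanCK against IBA1 gave 4 with the filter, 3 after thinning and 7 with counts of 1 set to 0, in place of 12, and 13 with the ROI as a replicate block. Parenchymal against periportal IBA1 gave 5 after thinning in place of 12. TMM moved the median of all genes for diet from -0.17 to 0.02 in WT PanCK and from 0.18 to -0.06 in Trail.mye PanCK segments, and DESeq2 moved the latter to -0.15.

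With each segment left out in turn, calls ranged from 28 to 36 for diet over all segments, 2 to 5 in WT PanCK, 6 to 11 in Trail.mye PanCK, 2 to 8 in WT IBA1 periportal, 23 to 34 in Trail.mye IBA1 periportal and 5 to 10 in parenchymal segments. They ranged from 0 to 3 for genotype on DDC in PanCK (3 without Trail.mye DDC 035), 0 to 2 for both interactions, 10 to 23 for PanCK against IBA1 and 8 to 13 for parenchymal against periportal IBA1. The counts without single named segments stand in the report.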
